A study of Rattus norvegicus with 60 samples.

Results

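The genes described here are 33 genes of fatty acid oxidation and ketogenesis, out of 34322 genes listed in the count files, measured by bulk RNA sequencing in rat liver and mesenteric adipose tissue. They were taken by symbol from a set chosen with earlier results of these data known, by a rule that itself uses no measured value, and all 33 symbols were found. By the place of the encoded protein, 19 belong to mitochondrial β-oxidation and ketone body formation, 8 to peroxisomal oxidation, 3 to microsomal ω-oxidation (the Cyp4a genes), and 3 are cytosolic or nuclear (Acot1, Acot12 and the receptor gene Ppara).

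The study asked how prenatal alcohol exposure (PAE) bears on the peripheral response to stroke. Pregnant Sprague-Dawley dams breathed vaporised ethanol or room air in a vapour chamber for 12 days, over gestational days 8 to 20, and the offspring were taken at 5 months of age. Stroke was produced by middle cerebral artery occlusion 2 days before dissection, and the naive animals were littermates without stroke, with no sham operation described. In each tissue the groups were PAE with stroke (8 animals, 4 male and 4 female), PAE naive (8, 4 male and 4 female), control with stroke (7, 3 male and 4 female) and control naive (7, 3 male and 4 female), 60 libraries in all, 1 animal per library and tissue, with the same animal codes in the titles of both tissues. Dams and litters are not identified in the labels, so p-values treat animals of 1 group as independent.

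Long-chain fatty acids enter mitochondria as carnitine esters, are cut there by the β-oxidation spiral, and in liver much of the acetyl-CoA formed is turned into ketone bodies. Peroxisomes shorten very long and branched chains, and the Cyp4a enzymes of the endoplasmic reticulum hydroxylate the far (ω) end of fatty acids. The nuclear receptor encoded by Ppara is known to switch on genes of all these routes in fasted rodent liver, where it binds, with its partner RXR, a direct repeat of the half-site AGGTCA.

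Promoters are shown for 5 members: Cyp4a2, Cyp4a3, Acot4 and Eci1, which were lower after stroke in both exposures in liver and carry an AGGTCA half-site, and Hadhb, which shares its promoter with Hadha. RefSeq windows of 250 bases before and 50 bases after the gene start (assembly GRCr8, not the rn7 build of the counts) were found for 28 of the 33 members, and not for Acaa2, Acadl, Cyp4a1, Decr1 and Ech1. Capitals mark the half-site on either strand (AGGTCA or TGACCT), 5′ to 3′ along each gene.
Cyp4a2 (chr5:134170859-134171158, minus strand): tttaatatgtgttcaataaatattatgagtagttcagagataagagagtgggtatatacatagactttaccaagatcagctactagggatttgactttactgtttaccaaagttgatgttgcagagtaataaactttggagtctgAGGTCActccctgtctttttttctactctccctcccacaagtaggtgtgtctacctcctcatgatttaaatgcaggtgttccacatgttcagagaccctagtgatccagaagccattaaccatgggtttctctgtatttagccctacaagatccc
Cyp4a3 (chr5:134352187-134352486, minus strand): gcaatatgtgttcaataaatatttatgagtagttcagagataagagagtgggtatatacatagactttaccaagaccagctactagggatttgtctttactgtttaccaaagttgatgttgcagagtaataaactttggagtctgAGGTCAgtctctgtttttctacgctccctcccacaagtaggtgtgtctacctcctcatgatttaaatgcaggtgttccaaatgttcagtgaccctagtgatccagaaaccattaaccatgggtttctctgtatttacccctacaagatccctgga
Acot4 (chr6:109399604-109399903, plus strand): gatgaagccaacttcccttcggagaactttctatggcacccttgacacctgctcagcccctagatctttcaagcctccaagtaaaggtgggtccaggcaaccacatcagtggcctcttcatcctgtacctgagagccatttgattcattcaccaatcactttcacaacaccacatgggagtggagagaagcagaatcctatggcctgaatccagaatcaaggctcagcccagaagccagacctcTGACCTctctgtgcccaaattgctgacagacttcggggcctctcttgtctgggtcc
Eci1 (chr10:13961000-13961299, plus strand): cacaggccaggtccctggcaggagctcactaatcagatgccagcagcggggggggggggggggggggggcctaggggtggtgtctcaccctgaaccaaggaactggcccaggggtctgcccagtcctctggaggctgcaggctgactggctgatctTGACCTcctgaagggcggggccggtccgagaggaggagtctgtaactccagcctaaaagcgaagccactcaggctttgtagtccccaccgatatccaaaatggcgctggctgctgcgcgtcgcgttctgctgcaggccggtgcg
Hadhb (chr6:31907451-31907750, minus strand): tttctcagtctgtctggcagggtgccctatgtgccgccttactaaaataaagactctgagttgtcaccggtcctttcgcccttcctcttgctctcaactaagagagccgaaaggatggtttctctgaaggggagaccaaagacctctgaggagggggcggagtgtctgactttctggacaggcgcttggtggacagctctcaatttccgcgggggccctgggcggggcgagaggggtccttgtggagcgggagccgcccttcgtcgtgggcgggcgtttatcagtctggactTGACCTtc
The half-site AGGTCA, searched on both strands, was present in 9 of 28 member windows (32.1%) and in 5415 of 33469 windows of the same length (16.2%). Carriers not shown were Acot12, called lower after stroke in liver over both exposures, and Acadvl, Eci2 and Slc27a2, not called there. Acadm, Acot2, Bdh1, Cpt1a, Cpt2, Crat, Decr2, Ehhadh and Pex11a were called lower there and have no half-site in their windows. A link between half-site and stroke change was not tested. The full direct repeat spaced by 1 base, known as DR1, was in 0 of 28 member windows and in 18 of all windows (0.0538%), and a looser DR1 with any base at the fourth position of each half-site was in 0 of 28 and in 139 of all (0.415%). The box GGGCGG was in 19 of 28 member windows (67.9%) and in 11066 of all (33.1%). The windows of Cyp4a2 and Cyp4a3, aligned without gaps, had the same base at 180 of 300 positions (60%), and both carry the half-site 105 bases before the start. Hadha and Hadhb start 301 bases apart on opposite strands of chromosome 6, and their windows share 200 bases. These matches describe the letters of the windows only.

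Depth was 7722731 to 30417173 counts per liver library and 9808014 to 25373729 counts per adipose library. Nuclear rRNA genes took 0.626 to 51.1% of the counts of a liver library and 0.469 to 50.0% of an adipose library, and the members together 0.288 to 1.21% and 0.115 to 0.277%. Summed hepatocyte markers (12 of 12 detected) were 100200 to 166800 CPM (counts scaled to library size) in liver and 253 to 644 CPM in adipose libraries, and white adipocyte markers 2196 to 6716 CPM in liver and 11640 to 29160 CPM in adipose libraries. All 30 male-female labels per tissue matched the Y-linked counts. The liver library of PAE stroke female 4 stood apart in 3 members, Ehhadh and Ppara low and Etfb high. A gene was called at a Benjamini-Hochberg adjusted p under 0.05 over all genes tested, by edgeR's quasi-likelihood test, two-sided, and changes are on the log2 scale.

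Liver held far more transcript of nearly every member than mesenteric adipose tissue. Of 33 members tested, 31 were higher in liver and 0 lower, where 88.4% of all 19686 genes were called in either direction (38.4% higher in liver, 50.0% lower) and the median of all genes was -0.24, against 2.41 for the members. Acot12, Cyp4a2 and Cyp4a3 did not pass the filter on low counts in adipose tissue alone. They entered this fit by their liver counts, so their direction was set in advance and is no result. Acot12, a cytosolic acetyl-CoA hydrolase of liver, had 104, 182 and 334 CPM (lowest, median and highest of 30 libraries, both tissues scaled together) in liver, against 0, 0 and 0.234 CPM in adipose tissue. Slc27a2, the very long chain acyl-CoA synthetase, had 1276, 1762 and 2099 CPM in liver and 0.106, 0.733 and 4.61 CPM in adipose tissue, a log2 difference of 11.04 ± 0.24 (SE, adjusted p = 4.37e-40). Every liver library lay above every adipose library for both genes, and the share of all genes with the tissues apart was not counted.

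Of the ω-hydroxylases, Cyp4a1 had 182, 377 and 727 CPM in liver against 0.122, 0.361 and 1.98 CPM in adipose tissue, a difference of 9.81 ± 0.20. Cyp4a2 had 0 counts in 28 of 30 adipose libraries and 1 count in the other two, and 0, 1.31 and 156 CPM in liver, so no fold is given. Among mitochondrial genes, Bdh1, which makes β-hydroxybutyrate from acetoacetate, had 140.5, 303 and 455 CPM in liver and 0.866, 2.63 and 4.85 CPM in adipose tissue (6.68 ± 0.18). Cpt1a, the entry enzyme of the carnitine shuttle in liver, differed by 4.45 ± 0.14, Acadm (medium-chain acyl-CoA dehydrogenase) by 2.79 ± 0.06, Ehhadh (the peroxisomal bifunctional enzyme) by 5.31 ± 0.16 and Ppara by 4.54 ± 0.10. The differences were smaller for the mitochondrial trifunctional protein (Hadha 1.04 ± 0.06, Hadhb 1.26 ± 0.07) and least, among the called members, for the electron transfer flavoprotein genes Etfa (0.68 ± 0.06) and Etfb (0.49 ± 0.07). Pex11a, a peroxisome division factor, was not called (-0.02 ± 0.12 SE, adjusted p = 0.865), with 5.7, 27 and 55.5 CPM in liver and 15.9, 30.1 and 41.7 CPM in adipose tissue, and neither was Acot1 (-0.19 ± 0.31 SE, adjusted p = 0.562), which was near 0 in both. Acot1 and Acot2 are near-identical copies, as are Cyp4a2 and Cyp4a3, and reads may be split between them.

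**Figure D1:**
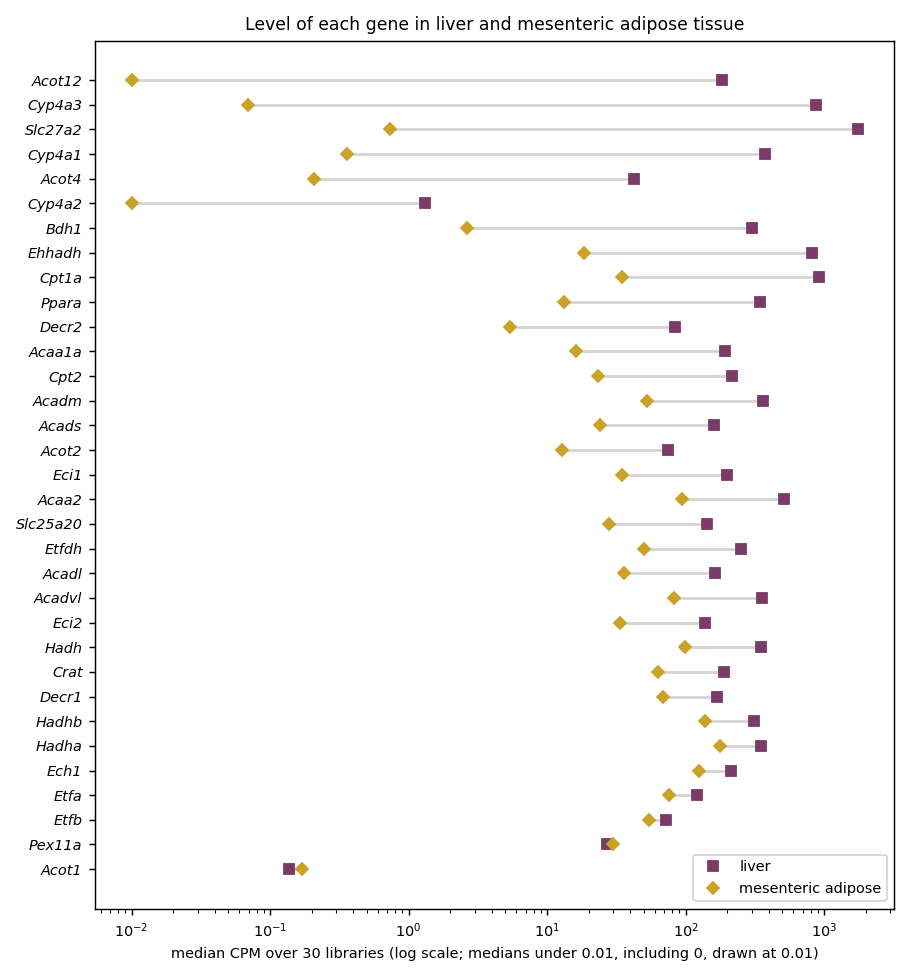
Median CPM of each of the 33 genes over 30 liver libraries (squares) and 30 mesenteric adipose libraries (diamonds), on a log axis, with both tissues scaled together and genes ordered by the ratio of medians with a small constant added to both. The liver median lies above the adipose median for all genes but Pex11a and Acot1.

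In liver, many of these fatty acid oxidation genes were lower 2 days after stroke. Over both exposures and sexes, 19 of the 32 members tested fell and 1 rose, against 14.4% of all 15889 genes called, 5.84% lower and 8.55% higher, and the median change of the members was -0.36 (all genes -0.01). The lower members were 10 of 19 mitochondrial, 5 of 8 peroxisomal and all 3 ω-oxidation genes, and Acot12. Fewer cells of a type and less RNA per cell cannot be told apart in whole tissue. The mean log2 CPM over the 32 members was 6.34, 6.99 and 7.25 (lowest, median and highest of 15 libraries) after stroke and 6.83, 7.36 and 7.65 in naive livers, so the ranges overlapped.

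Within the carnitine shuttle, Cpt1a fell, Cpt2 (the inner membrane transferase) fell and Crat (carnitine acetyltransferase) fell. Cpt1a had 144, 503 and 785 CPM in stroke livers (n = 15), against 398, 783 and 1171 CPM in naive livers (n = 15), a change of -0.75 ± 0.19 (SE, adjusted p = 0.00861). For this gene 6 stroke livers lay below every naive liver and 14 of 15 below the naive mean of their sex. Cpt2 had medians of 139 CPM in stroke livers and 182 CPM in naive livers (-0.49 ± 0.11 SE, adjusted p = 0.00314), and Crat of 101 CPM in stroke livers and 151 CPM in naive livers (-0.59 ± 0.14 SE, adjusted p = 0.00378). The translocase gene Slc25a20 did not pass (-0.23 ± 0.09 SE, adjusted p = 0.0794).

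Of the 4 acyl-CoA dehydrogenases, Acadm alone was called, with 174, 228 and 277 CPM after stroke against 192, 285 and 398 CPM in naive livers (-0.38 ± 0.09 SE, adjusted p = 0.00531). Acadl, Acads and Acadvl changed by -0.10 ± 0.10, 0.05 ± 0.09 and -0.05 ± 0.06, none past the test. Both subunits of the trifunctional protein were measured: Hadhb fell (-0.37 ± 0.11 SE, adjusted p = 0.0222), with medians of 201 CPM after stroke and 252 CPM in naive livers. Hadha, the oppositely oriented neighbour of Hadhb, had 144, 241 and 349 CPM after stroke and 170.5, 260.5 and 331 CPM in naive livers and was not called (-0.12 ± 0.10 SE, adjusted p = 0.517); the difference between the 2 genes was not tested. Acaa2, the last thiolase of the spiral, had 186, 305 and 450.2 CPM after stroke against 317, 489.8 and 644 CPM in naive livers (-0.63 ± 0.10 SE, adjusted p = 5.78e-05). For Acaa2, 14 of 15 stroke livers were below the naive mean of their sex. Hadh, the short-chain hydroxyacyl-CoA dehydrogenase, changed by -0.13 ± 0.08 and was not called.

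Of the 5 isomerases and reductases that admit unsaturated chains to the spiral, 4 fell. Eci1, the mitochondrial enoyl-CoA isomerase, had 42.2, 75.5 and 255 CPM after stroke against 119, 199 and 266 CPM in naive livers (-0.95 ± 0.18 SE, adjusted p = 0.00052), and 11 of 15 stroke livers lay below every naive one. Ech1, the dienoyl-CoA isomerase of peroxisomes and mitochondria, had 56.4, 84.1 and 161 CPM after stroke and 139, 229.5 and 307 CPM in naive livers (-1.14 ± 0.16 SE, adjusted p = 1.09e-05), with 11 of 15 stroke livers below every naive liver. Decr1 and Decr2, the mitochondrial and peroxisomal dienoyl-CoA reductases, also fell, with changes of -0.29 ± 0.08 (SE, adjusted p = 0.016) for Decr1 and -0.29 ± 0.10 (SE, adjusted p = 0.0444) for Decr2. Eci2 was not called (-0.22 ± 0.12).

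Among the thioesterases, which release free fatty acid from CoA, Acot2 had 17.6, 33.8 and 74.2 CPM after stroke against 41.9, 78.1 and 147 CPM in naive livers (-1.22 ± 0.14 SE, adjusted p = 5.17e-07), lower in 15 of 15 stroke livers than the naive mean of their sex. Acot4, peroxisomal in mouse, had 10.5, 22.7 and 49.4 CPM after stroke and 25.7, 47.3 and 95.5 CPM in naive livers (-1.08 ± 0.16 SE, adjusted p = 3.46e-05). In the control animals alone the 7 stroke livers, 10.5 to 24.6 CPM, lay below all 7 naive livers, 25.7 to 62.6 CPM, the 1 member of 32 whose groups were apart in that comparison. The 2 groups were apart for 0.717% of all genes, 0.170% with stroke lower, and 2.95% of all genes were called. Acot12 also fell (-0.34 ± 0.12 SE, adjusted p = 0.0485), and Acot1 did not pass the filter on low counts. Bdh1 had 102, 163 and 252 CPM in stroke livers and 152, 256 and 325 CPM in naive livers (-0.58 ± 0.13 SE, adjusted p = 0.00364), with 12 of 15 stroke livers under the naive mean of their sex.

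The ω-hydroxylases fell together. Cyp4a1 had 130.5, 238 and 296 CPM after stroke against 205, 393 and 522 CPM in naive livers (-0.73 ± 0.13 SE, adjusted p = 0.000294), and Cyp4a3 had 349.7, 500.4 and 755 CPM after stroke against 484, 840.5 and 1237 CPM in naive livers (-0.75 ± 0.11 SE, adjusted p = 1.42e-05). Each of the 15 stroke livers was below the naive mean of its sex for both genes. Cyp4a2, read here mostly in males, had 8.02, 9.73 and 26.2 CPM in male stroke livers (n = 7) and 21.3, 52.7 and 112 CPM in male naive livers (n = 7), a change over both sexes of -1.47 ± 0.27 (SE, adjusted p = 0.000443). Male stroke and male naive livers overlapped for Cyp4a2 only between 21.3 and 26.2 CPM.

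In the peroxisomal group, Pex11a had 4.18, 13.5 and 30.1 CPM after stroke and 8.81, 32.5 and 39.5 CPM in naive livers (-0.86 ± 0.22 SE, adjusted p = 0.00877), with 10 of 15 naive livers above every stroke liver. Ehhadh had 140.2, 521 and 714 CPM after stroke and 248, 655 and 1175 CPM in naive livers (-0.58 ± 0.18 SE, adjusted p = 0.0289), and the ranges overlapped widely. Acaa1a, the peroxisomal thiolase with a near-identical copy in Acaa1b, and Slc27a2 changed by -0.14 ± 0.10 and -0.06 ± 0.07, neither called. The 1 member that rose was Etfb, a subunit of the flavoprotein that carries electrons from the dehydrogenases, with 49.5, 60.5 and 113 CPM after stroke against 33.4, 49.1 and 63 CPM in naive livers (0.34 ± 0.09 SE, adjusted p = 0.0126). Its partner Etfa (0.07 ± 0.08) and the dehydrogenase Etfdh (-0.20 ± 0.08) were not called. Ppara itself had 129, 261 and 302 CPM in stroke livers and 135, 235 and 389 CPM in naive livers and did not pass (-0.08 ± 0.12 SE, adjusted p = 0.725).

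Of the 20 calls, 17 held with each of the 30 libraries left out in turn. Ehhadh lost its call without control stroke male 2 (adjusted p = 0.0611), control naive male 1 (0.0775) or control naive female 3 (0.0521), and Acot12 and Decr2 lost theirs in 20 and 18 of the 30 fits, with adjusted p up to 0.1 and 0.0928. Without the 3 liver libraries over 40% nuclear rRNA (PAE stroke male 2, control stroke male 1 and control naive male 3), Etfb (adjusted p = 0.059), Ehhadh (0.0534), Acot12 (0.182) and Decr2 (0.0912) lost their calls. With males and females pooled in the fit, Ehhadh (adjusted p = 0.0826), Acot12 (0.0877), Crat (0.0921), Decr2 (0.0945) and Cyp4a2 (0.126) were not called. Without the filter on low counts Ehhadh (0.0533) was not called, nor was Acot12 with the rRNA genes removed (0.0505).

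**Figure D2:**
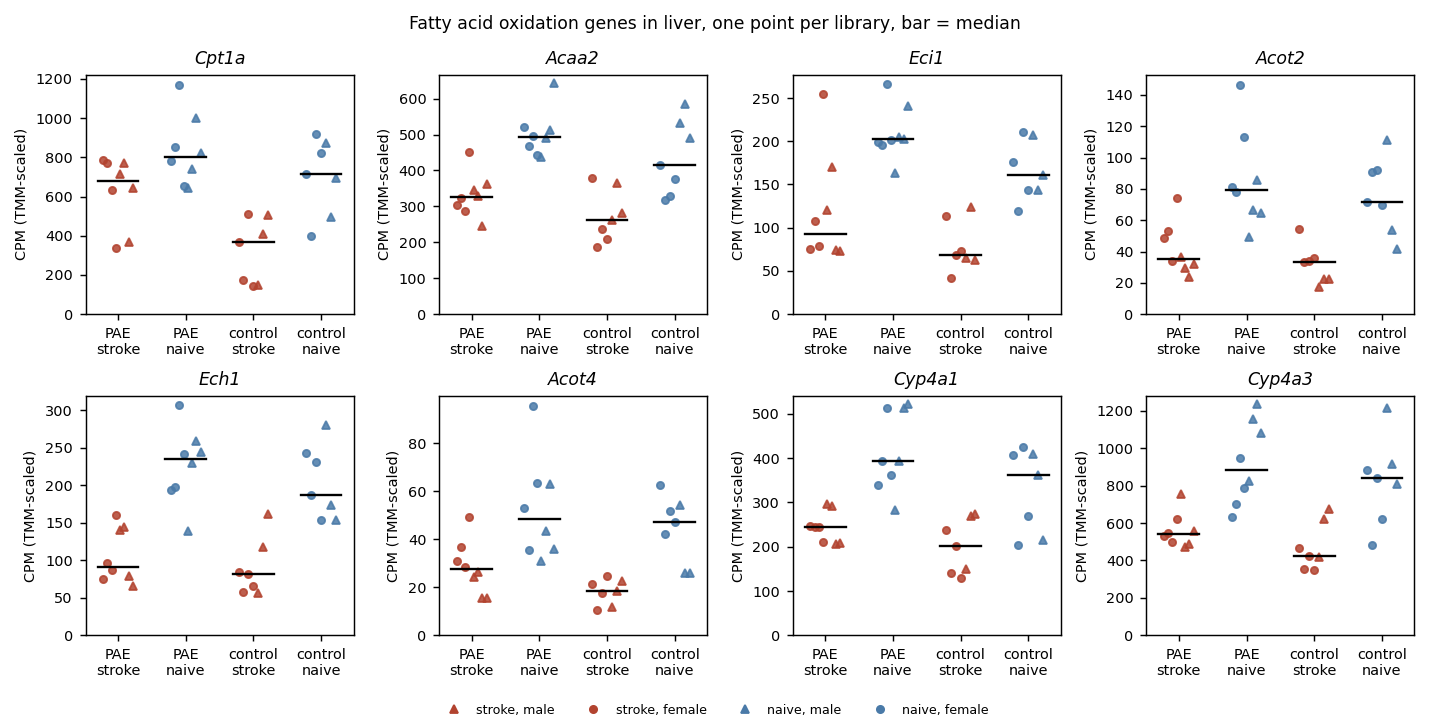
CPM (TMM-scaled) of 8 genes in liver, 1 point per library, in PAE stroke, PAE naive, control stroke and control naive animals; triangles are males, circles females and bars medians. In both exposures the median after stroke lies below the naive median for all 8 genes.

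Members fell within each exposure. In PAE animals 10 members fell and 1 rose (7.0% of all genes were called, 2.26% lower and 4.74% higher), and in control animals 10 fell and 0 rose (2.95% called, 0.950% lower and 2.00% higher). The 8 members called lower in both were Acaa2, Acot2, Acot4, Cyp4a1, Cyp4a2, Cyp4a3, Ech1 and Eci1. Pex11a was called in PAE animals (-1.01 ± 0.30 SE, adjusted p = 0.0382) and not in control animals (-0.70 ± 0.32 SE, adjusted p = 0.274), as was Acadm (-0.44 ± 0.12 SE, adjusted p = 0.0276, in PAE and -0.31 ± 0.13 SE, adjusted p = 0.236, in control animals). Cpt1a was not called in PAE animals (-0.40 ± 0.26 SE, adjusted p = 0.416) and was in control animals (-1.10 ± 0.29 SE, adjusted p = 0.0308), as was Cpt2 (-0.32 ± 0.15 SE, adjusted p = 0.212, in PAE and -0.65 ± 0.16 SE, adjusted p = 0.0245, in control animals). The test of the difference between the exposures passed for none of these 4. Of the other genes followed in each comparison, Hadha (-0.12 ± 0.14 in PAE and -0.12 ± 0.15 in control animals), Ehhadh (-0.60 ± 0.25 in PAE and -0.56 ± 0.26 in control animals), Bdh1 (-0.51 ± 0.18 in PAE and -0.65 ± 0.20 in control animals) and Ppara (0.29 ± 0.16 in PAE and -0.45 ± 0.17 in control animals) were called in neither. DESeq2 called Bdh1 in control animals (adjusted p = 0.0335). By sex and exposure together, 23 of 32 members were lower after stroke in all 4 groups of animals, and the share over all genes was not counted.

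For Cpt1a the CPM values were 339, 679.5 and 785 in PAE stroke livers against 642, 803 and 1171 in PAE naive livers, and 144, 368 and 511 in control stroke livers against 398, 716 and 919 in control naive livers. All 8 PAE stroke livers and all 7 control stroke livers were below the naive mean of their own exposure and sex. With single libraries left out, 6 of the 11 calls in PAE animals and 5 of the 10 in control animals held in every fit. In PAE animals Cyp4a2 lost its call without PAE naive female 1 (0.0568), Acadm in 4 fits (adjusted p up to 0.0761), Etfb in 10 (0.118), Eci1 in 11 (0.0763) and Pex11a in 13 (0.0774). In control animals Eci1 lost its call in 3 fits (adjusted p up to 0.063), Cpt2 in 4 (0.106), Cyp4a2 in 5 (0.0809), Cpt1a in 8 (0.0962) and Cyp4a1 in 13 (0.148). Without the libraries over 40% nuclear rRNA 5 of the 10 control calls were left, the others being Eci1 (adjusted p = 0.0697), Cyp4a1 (0.0722), Cyp4a2 (0.0836), Cpt2 (0.107) and Cpt1a (0.131). The same step ended the calls of Cyp4a2 (adjusted p = 0.0503), Etfb (0.0686), Acadm (0.0716) and Pex11a (0.0879) in PAE animals. With sexes pooled, Acadm (adjusted p = 0.0511), Pex11a (0.0614), Etfb (0.0818) and Cyp4a2 (0.49) were not called in PAE animals and Cyp4a1 (adjusted p = 0.0565) and Cyp4a2 (0.456) were not called in control animals. Without the filter on low counts, Etfb (adjusted p = 0.0658), Eci1 (0.0671) and Pex11a (0.0804) lost their calls in PAE animals and Cyp4a2 (adjusted p = 0.0507) and Cpt1a (0.0643) in control animals. The control stroke males had 17.9 to 51.1% nuclear rRNA and the control naive males 1.54 to 44.9%; its part in the change was not tested.

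Prenatal exposure did not move any member past the test in liver. Among naive animals 0 of 32 members were called by edgeR between PAE and control, as for all genes (0.00%; 347 genes and 0 members at an unadjusted p under 0.05), and DESeq2 called 0 members. Among stroke animals 0 were called (0.00%; 1030 genes and 8 members at an unadjusted p under 0.05; DESeq2 0), and 0 for the exposure by stroke interaction (0.00%; 455 genes and 1 member; DESeq2 0). Of the estimates, 29 of 32 were above 0 in naive animals (median 0.15) and 30 of 32 in stroke animals (median 0.21). The median over all genes was -0.00102 in naive and 0.0156 in stroke animals, and the share of all genes above 0 was not counted. The largest estimate in stroke animals was that of Cpt1a, 0.95 ± 0.28 (SE, adjusted p = 0.58). In naive animals the estimates were 0.25 ± 0.27 for Cpt1a, 0.11 ± 0.13 for Acadm, 0.19 ± 0.15 for Hadha, 0.30 ± 0.26 for Ehhadh, 0.34 ± 0.19 for Cyp4a1 and 0.26 ± 0.19 for Bdh1. Ppara had 139, 288 and 302 CPM in PAE stroke livers and 135, 218 and 319 CPM in PAE naive livers, against 129, 179.7 and 264 CPM in control stroke livers and 144, 235 and 389 CPM in control naive livers. Its difference of stroke changes between PAE and control was 0.74 ± 0.23 (SE, adjusted p = 1).

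**Figure D3:**
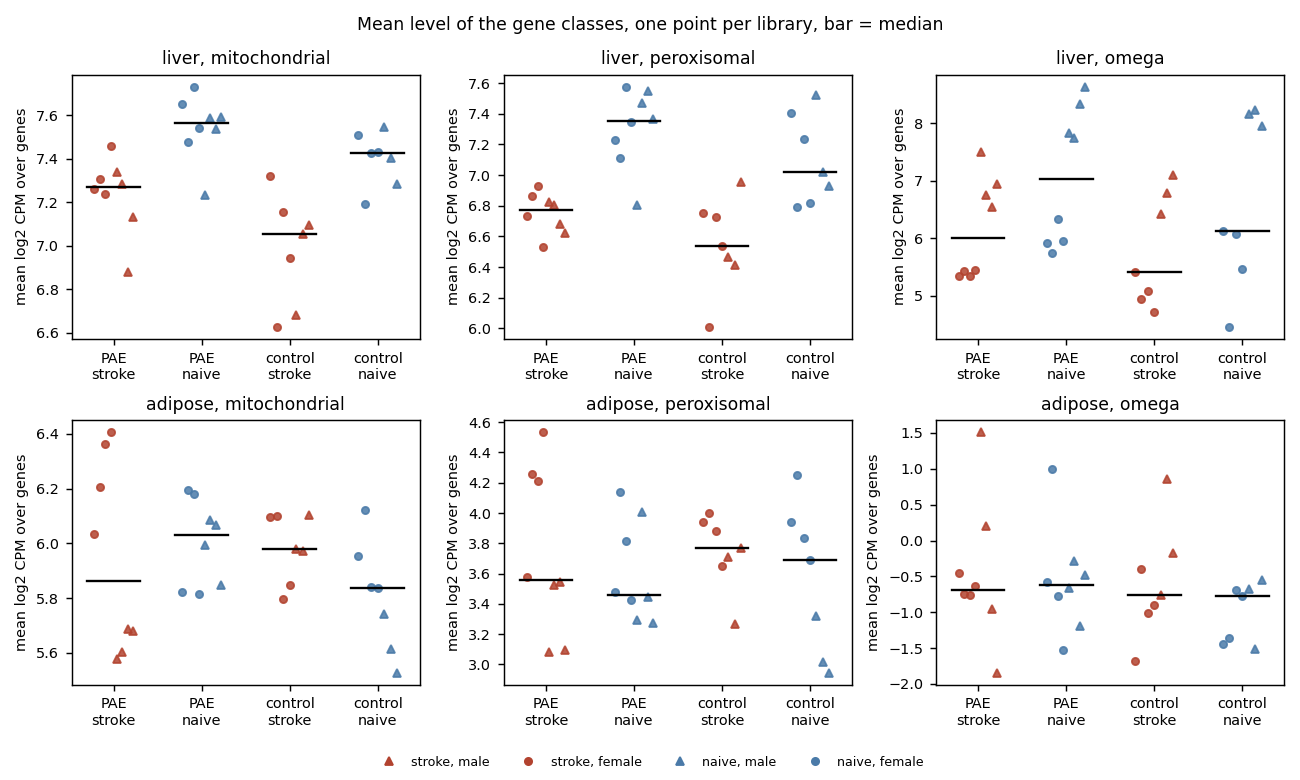
Mean log2 CPM over the mitochondrial, peroxisomal and ω-oxidation genes per library, liver above and mesenteric adipose tissue below, in PAE stroke, PAE naive, control stroke and control naive animals; triangles are males, circles females, bars medians. Liver medians are lower after stroke in every class and exposure, and adipose libraries overlap. The adipose ω panel shows Cyp4a1 alone, because Cyp4a2 and Cyp4a3 did not pass the filter on low counts there.

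By class, the mean log2 CPM of the mitochondrial genes was 6.88, 7.27 and 7.46 in PAE stroke livers, 7.23, 7.57 and 7.73 in PAE naive livers, 6.63, 7.05 and 7.32 in control stroke livers and 7.19, 7.43 and 7.54 in control naive livers (lowest, median and highest). For the peroxisomal genes it was 6.53, 6.77 and 6.93 in PAE stroke livers and 6.81, 7.36 and 7.58 in PAE naive livers, and 6.01, 6.54 and 6.95 in control stroke livers and 6.79, 7.02 and 7.52 in control naive livers. With sexes weighted equally, stroke minus naive was -0.307 in PAE and -0.425 in control animals for the mitochondrial class, -0.558 in PAE and -0.551 in control animals for the peroxisomal class, and -0.895 in PAE and -0.918 in control animals for the ω class. The SD between libraries of 1 group was 0.184, 0.269 and 0.404 for the 3 classes. The mean ω change was larger in males, with a sex by stroke difference of -0.727. With the median over members in place of the mean this difference was 0.17. Of its 3 genes, Cyp4a2 changed by -1.91 in PAE males and -2.73 in control males. In females, where its level was near 0, Cyp4a2 changed by -0.561 in PAE and 0.17 in control animals. Cyp4a1 and Cyp4a3 changed by -0.467 to -0.928 over all groups of sex and exposure. These class means get no test.

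Single members differed between males and females in liver, and Cyp4a2 did so most. It had 8.02, 23.8 and 112 CPM in 14 male livers against 0, 0.493 and 0.97 CPM in 16 female livers, with no overlap. Male and female livers were apart for 1.39% of all genes, 0.755% with males higher and 0.636% with males lower. The difference was 5.72 ± 0.26 (SE, adjusted p = 2.46e-15), or 52.6-fold higher in males. Between males and females 5 members were higher and 4 lower in males, where 32.5% of all genes were called, 16% higher and 16.5% lower. Ppara was higher in male livers, with 137, 288 and 389 CPM in males against 129, 176 and 292 CPM in females (0.60 ± 0.11 SE, adjusted p = 0.000166), and 13 of 14 males lay above the mean of the females. Cyp4a3 (0.38 ± 0.11 SE, adjusted p = 0.00636), Acot12 (0.35 ± 0.12 SE, adjusted p = 0.0236) and Decr2 (0.28 ± 0.10 SE, adjusted p = 0.0257) were also higher in males. Cpt1a (0.02 ± 0.19), Acadm (0.21 ± 0.09), Hadha (0.15 ± 0.10), Ehhadh (0.25 ± 0.18), Cyp4a1 (0.14 ± 0.13) and Bdh1 (0.16 ± 0.13) were not called. Acadm was called with the replicate block (adjusted p = 0.0291). Markers of other tissues also differed between these livers. The 8 intestinal epithelium markers summed to 34.8 to 263 CPM in males and 1.6 to 17.9 CPM in females. None was at 0 throughout either sex. The 11 pancreas acinar markers summed to 1.3 to 5.2 CPM in males and 19.7 to 166 CPM in females. Prss1, Prss2 and Pnlip were at 0 in all male livers. Prss2, Pnlip and Amy2a3 were at 0 in all female livers. Of the 3 markers tested in each list 1 was higher and 1 lower in males. Of 10 macrophage markers 7 were lower in males (188 to 575 CPM in males and 399 to 836 CPM in females). Their part in the differences of the members was not tested.

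Lower in males were Acot2, with 17.6, 39.3 and 112 CPM in males and 33.2, 70.7 and 147 CPM in females (-0.64 ± 0.14 SE, adjusted p = 0.000608), Crat with 37.9, 88.2 and 202 CPM in males and 66.1, 152 and 185 CPM in females (-0.63 ± 0.14 SE, adjusted p = 0.000796), Acot4 (-0.49 ± 0.16 SE, adjusted p = 0.0212) and Acadvl (-0.20 ± 0.06 SE, adjusted p = 0.0182). The males and females overlapped for each of these 4. Without the libraries over 40% nuclear rRNA, Acot4 (adjusted p = 0.0659) and Acadvl (0.0771) were not called, and Acadvl was not called without the filter on low counts (0.0522) or with the replicate block (0.055). Of the 9 calls, 7 held with each library left out. Acot12 lost its call without control stroke male 3 (adjusted p = 0.0857), and Decr2 without control stroke male 3 (0.0694) or control naive male 1 (0.0575). The difference of the stroke changes between males and females was called for 0 of 32 members (0.126% of all genes, 0.0566% higher and 0.0692% lower; 4 members at an unadjusted p under 0.05; DESeq2 called 1). Its largest estimates were those of Cyp4a2 (-1.79 ± 0.55 SE, adjusted p = 0.303), Ehhadh (-0.69 ± 0.36 SE, adjusted p = 0.715) and Crat (-0.68 ± 0.27 SE, adjusted p = 0.572). DESeq2 called 88 of all genes for this difference.

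**Figure D4:**
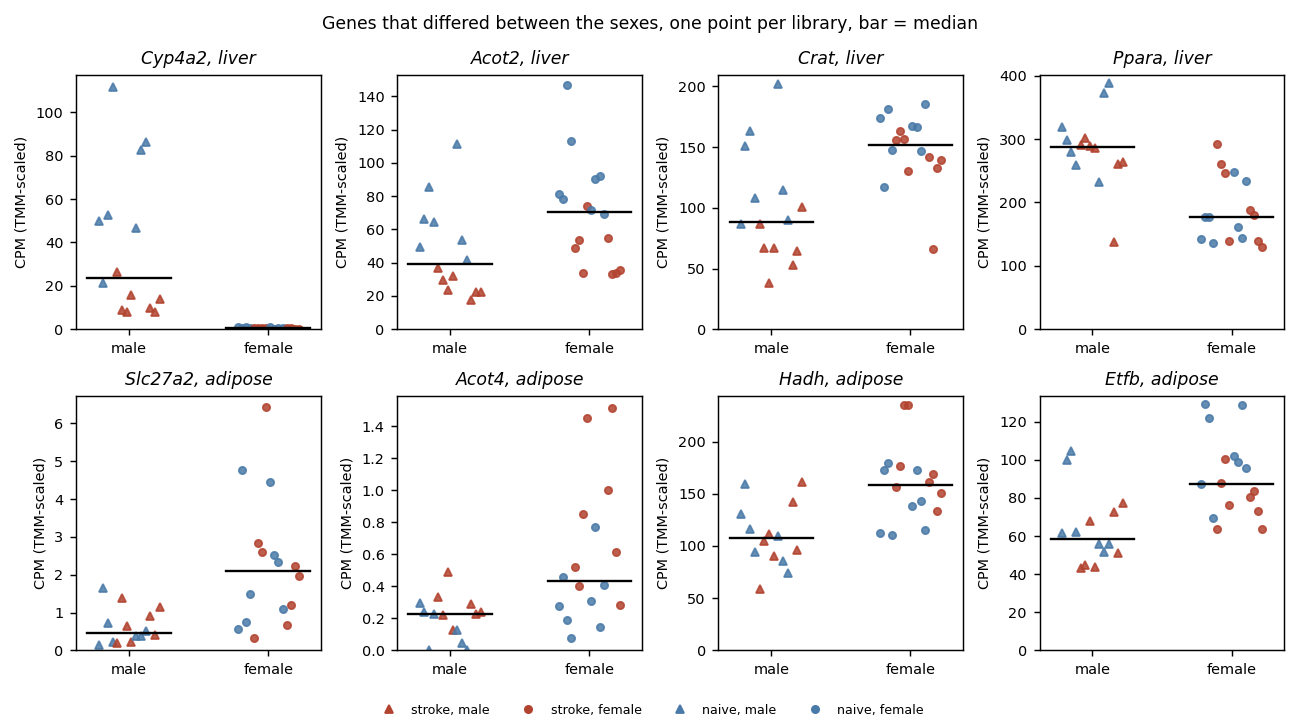
CPM (TMM-scaled) of 4 genes in liver (top) and 4 in mesenteric adipose tissue (bottom) that differed between males and females, 1 point per library; red is stroke, blue naive, bars are medians. Cyp4a2 in liver is the gene whose male and female libraries do not overlap.

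Averaged over exposures and sexes, the members did not fall together after stroke in mesenteric adipose tissue. Over both exposures and sexes 6 of the 30 members tested rose and 2 fell, where 18.4% of all 18546 genes were called, 10.7% higher and 7.74% lower, and the members' median change was 0.15. Cyp4a2, Cyp4a3 and Acot12 did not pass the filter on low counts there. In males the mean log2 CPM of the mitochondrial genes went opposite ways by exposure. It was 5.58 to 5.69 in PAE stroke males against 5.85 to 6.085 in PAE naive males. In control males it was 5.97 to 6.10 after stroke against 5.53 to 5.74 in naive animals. In females of either exposure, stroke and naive libraries overlapped. These class means were not tested. The largest rise was that of Acot4, at a very low level of 0.126, 0.405 and 1.51 CPM after stroke against 0, 0.226 and 0.77 CPM in naive tissue (1.36 ± 0.39 SE, adjusted p = 0.0171), and 4 of 15 stroke libraries lay above every naive one. Decr2 had 6.9, 8.31 and 11.9 CPM after stroke and 4.37, 6.49 and 8.82 CPM in naive tissue (0.41 ± 0.09 SE, adjusted p = 0.00382), higher in 15 of 15 stroke libraries than the naive mean of their sex.

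Ppara rose, with 11.2, 23.3 and 34.2 CPM after stroke, against 12.6, 17.1 and 21.1 CPM in naive tissue (0.39 ± 0.11 SE, adjusted p = 0.0145), with 9 of 15 stroke libraries above every naive library and 1 below every one. Cpt2 had 26.8, 36.2 and 58 CPM after stroke and 18.1, 27.1 and 40.6 CPM in naive tissue (0.35 ± 0.09 SE, adjusted p = 0.00749), higher in 13 of 15. Hadhb (0.29 ± 0.08 SE, adjusted p = 0.0153) and Etfdh (0.22 ± 0.07 SE, adjusted p = 0.0311) rose as well. Ech1 fell, with 104, 144 and 258 CPM after stroke against 142, 206 and 244 CPM in naive tissue (-0.43 ± 0.09 SE, adjusted p = 0.00138), lower in 14 of 15. Etfb fell to a median of 72.5 CPM after stroke, against 95.5 CPM in naive tissue (-0.31 ± 0.11 SE, adjusted p = 0.0471). Not called were Cpt1a (-0.04 ± 0.12), Acadm (-0.06 ± 0.07), Hadha (0.10 ± 0.07), Ehhadh (-0.03 ± 0.19), Cyp4a1 (0.43 ± 0.34) and Bdh1 (0.32 ± 0.27).

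Of the 8 calls, 6 held with each of the 30 libraries left out, while Etfb lost its call in 19 fits (adjusted p up to 0.103) and Etfdh in 7 (up to 0.0557). Without the filter on low counts Etfb was not called (0.0583). With males and females pooled in the fit, Acot4 (adjusted p = 0.0617), Hadhb (0.0731), Etfdh (0.177) and Etfb (0.108) were not called. In the same comparison 5 of 9 macrophage markers tested were higher after stroke (summed 626 to 2783 CPM after stroke, 589 to 1606 CPM in naive tissue), and 3 of 6 neutrophil markers were higher and 1 lower (43.1 to 166 and 19.1 to 138 CPM in stroke and naive tissue). Of 12 white adipocyte markers 1 was higher and 5 lower (11640 to 23460 and 13930 to 29160 CPM in stroke and naive tissue), with none at 0. The part of these markers in the members' changes was not tested.

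Within PAE animals 0 members rose and 2 fell (6.28% of all genes called, 3.31% higher and 2.97% lower), Ech1 (-0.54 ± 0.12 SE, adjusted p = 0.00853) and Etfb (-0.51 ± 0.15 SE, adjusted p = 0.0371). Within control animals 3 rose and 0 fell (4.22% called, 3.26% higher and 0.965% lower), Hadhb (0.48 ± 0.12 SE, adjusted p = 0.0196), Cpt2 (0.47 ± 0.13 SE, adjusted p = 0.0343) and Etfdh (0.36 ± 0.10 SE, adjusted p = 0.046). Hadhb had 192, 206 and 216 CPM in control stroke tissue and 111, 148 and 219 CPM in control naive tissue, higher in 7 of 7, and 131, 183 and 292 CPM in PAE stroke tissue and 143, 171 and 232 CPM in PAE naive tissue. The corresponding change of Hadhb in PAE animals was 0.09 ± 0.11, and the difference between exposures did not pass (-0.39 ± 0.16 SE, adjusted p = 0.791). As differences of mean log2 CPM, the Hadhb change was -0.241 in PAE males and 0.449 in PAE females. It was 0.692 in control males and 0.296 in control females, and this split was not tested. Each of the 3 control calls was lost when some single library was left out: Hadhb without control stroke male 3 (0.0531) or control naive male 3 (0.054), Cpt2 in 10 fits and Etfdh in 15. With sexes pooled, Hadhb (adjusted p = 0.147), Cpt2 (0.151) and Etfdh (0.343) were not called in control animals, and neither was Etfb in PAE animals (0.165). Etfdh was also not called in control animals with RLE scaling (0.0522) or without the filter on low counts (0.0674), or with the replicate block (0.0631). Of the PAE calls, Ech1 held in all 30 fits and Etfb was lost in 10 (adjusted p up to 0.0814).

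**Figure D5:**
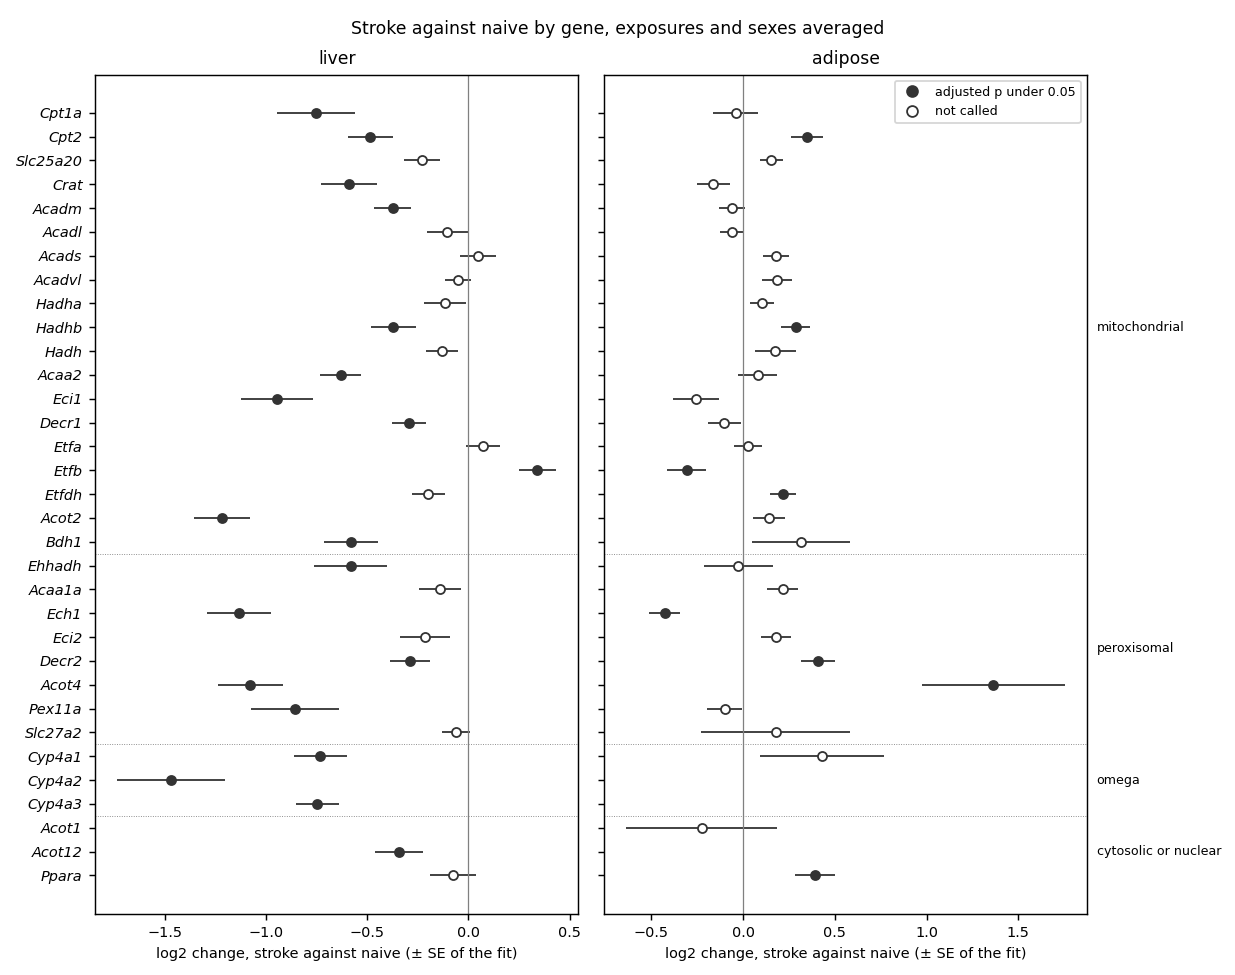
log2 change after stroke of each gene tested, with its standard error, averaged over exposures and sexes, in liver (left, n = 15 stroke and 15 naive) and mesenteric adipose tissue (right, n = 15 and 15); filled points have an adjusted p under 0.05. In liver 19 points are called below 0 and 1 above, in adipose tissue 2 below and 6 above.

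Between PAE and control, 0 of 30 adipose members were called by edgeR among naive animals (0.00%; 1257 genes and 8 members at an unadjusted p under 0.05; DESeq2 called 2), among stroke animals (0.00%; 703 genes and 0 members; DESeq2 0) or for the interaction (0.00%; 1125 genes and 6 members; DESeq2 0). In naive animals 29 of 30 estimates were above 0, with a median of 0.245, among them Etfa, which had 96.1, 115 and 153 CPM in PAE naive tissue and 69.7, 90.1 and 130.5 CPM in control naive tissue (0.40 ± 0.11 SE, adjusted p = 0.569). In naive animals the estimates were -0.02 ± 0.17 for Cpt1a, 0.29 ± 0.10 for Acadm, 0.34 ± 0.09 for Hadha, 0.26 ± 0.27 for Ehhadh and 0.01 ± 0.16 for Ppara. In stroke animals 11 of 30 were above 0, with a median of -0.03. The share of all adipose genes above 0 was not counted in either comparison. DESeq2 called 23 of all genes between PAE and control in naive adipose tissue. PAE stroke tissue was split by sex: the mean log2 CPM of the mitochondrial genes was 5.58 to 5.69 in its 4 males, against 6.03 to 6.41 in its 4 females, and nuclear rRNA was 0.469 to 2.44% in those males and 11.9 to 28.0% in those females; its part in the split was not tested.

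In adipose tissue 12 members were lower in males than in females. Of 30 members tested none was higher in males, where 8.22% of all genes were called, 4.53% higher and 3.69% lower. The mitochondrial mean log2 CPM was 5.53 to 5.74 in control naive males and 5.84 to 6.12 in control naive females. In PAE stroke tissue it was 5.58 to 5.69 in males and 6.035 to 6.406 in females, with nuclear rRNA as given above. Males and females overlapped in control stroke tissue (5.97 to 6.10 and 5.80 to 6.10) and in PAE naive tissue (5.85 to 6.085 and 5.81 to 6.20). These group differences were not tested. Slc27a2 had 0.148, 0.469 and 1.66 CPM in 14 male libraries and 0.333, 2.1 and 6.42 CPM in 16 female libraries (-1.85 ± 0.42 SE, adjusted p = 0.0119), and Acot4 had 0, 0.227 and 0.487 CPM in males and 0.0785, 0.431 and 1.51 CPM in females (-1.61 ± 0.39 SE, adjusted p = 0.0173). For both, 14 of 14 males were below the mean of the females, and both are at a very low level in this tissue. Among genes of higher level, Hadh had 58.7, 107 and 161 CPM in males and 111, 158 and 235 CPM in females (-0.55 ± 0.11 SE, adjusted p = 0.00589), and Etfb 43.4, 58.6 and 104 CPM in males and 63.6, 87.5 and 129 CPM in females (-0.54 ± 0.11 SE, adjusted p = 0.00542).

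The other 8 lower in males were Ehhadh (-0.69 ± 0.19 SE, adjusted p = 0.0304), Pex11a (-0.37), Decr1 (-0.35), Etfdh (-0.33), Acadvl (-0.32), Hadhb (-0.32), Acot2 (-0.29) and Acadl (-0.23). Cpt1a (0.35 ± 0.12 SE, adjusted p = 0.0687), Acadm (-0.14 ± 0.07 SE, adjusted p = 0.216), Hadha (-0.20 ± 0.07 SE, adjusted p = 0.059), Cyp4a1 (0.48 ± 0.34 SE, adjusted p = 0.372), Bdh1 (0.12 ± 0.27 SE, adjusted p = 0.806) and Ppara (-0.32 ± 0.11 SE, adjusted p = 0.0663) were not called. Of these, DESeq2 called Cpt1a (adjusted p = 0.0451), Hadha (0.0223) and Ppara (0.0428), and the replicate block called Hadha (0.0494). Leaving out 1 library at a time, 6 of the 12 calls held in every fit. Ehhadh lost its call in 5 fits (adjusted p up to 0.0765), Acot2 in 16 (0.109), Pex11a, Acadl and Acadvl in 2 each (0.0567, 0.0712 and 0.0547), and Decr1 in 1, without control naive male 3 (0.053). With the replicate block Ehhadh (adjusted p = 0.0562) and Acot2 (0.0741) were not called, and Acot2 was not called without the filter on low counts (0.065). Acadl, Acadvl, Pex11a and Ehhadh were each lost without control naive male 3 or without control stroke male 2. The difference of the stroke changes between males and females was called for 0 of 30 members (0.00% of all genes; 1018 genes and 1 member at an unadjusted p under 0.05; DESeq2 0).

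The stroke change differed between the tissues for 13 of 33 members, tested directly in 1 fit of all 60 libraries: 12 were more negative in liver and 1 more positive (7.99% of all genes called, 4.37% negative and 3.62% positive). The difference of log2 changes, liver minus adipose, was -2.43 ± 0.42 (SE, adjusted p = 0.000118) for Acot4, which fell in liver and rose in adipose tissue, and -1.36 ± 0.17 (SE, adjusted p = 4.1e-07) for Acot2. It was -0.83 ± 0.14 (SE, adjusted p = 0.000118) for Cpt2, -0.66 ± 0.14 (SE, adjusted p = 0.00162) for Hadhb and -0.69 ± 0.14 (SE, adjusted p = 0.000683) for Decr2, 3 genes called lower in liver and higher in adipose tissue. Acaa2 (-0.71 ± 0.15), Eci1 (-0.69 ± 0.22), Pex11a (-0.76 ± 0.24), Cyp4a1 (-1.18 ± 0.35), Etfdh (-0.42 ± 0.11) and Slc25a20 (-0.39 ± 0.11) were also called. Ech1 fell in both tissues and by more in liver (-0.71 ± 0.19 SE, adjusted p = 0.0109), and Etfb rose in liver and fell in adipose tissue (0.65 ± 0.15 SE, adjusted p = 0.00293). Cpt1a (-0.71 ± 0.24 SE, adjusted p = 0.0519), Ehhadh (-0.56 ± 0.27 SE, adjusted p = 0.207), Bdh1 (-0.87 ± 0.29 SE, adjusted p = 0.0503) and Ppara (-0.47 ± 0.16 SE, adjusted p = 0.0603) were not called, and neither were Acadm (-0.32 ± 0.12) and Hadha (-0.22 ± 0.13). This fit takes the liver and the adipose library that carry the same animal code as independent. With the animal code as a replicate block 16 members were called, the same 13 and 3 more, with 1417 of all genes called. The added 3, with their differences and adjusted p in that fit, were Acaa1a (-0.37, 0.0398), Cpt1a (-0.78, 0.0224) and Crat (-0.46, 0.0412). DESeq2 called Cpt1a (adjusted p = 0.0494) and Bdh1 (0.0408) as well. With all libraries of 1 replicate number left out in turn, 7 of the 13 calls held in all 4 fits. Cyp4a1 and Pex11a were lost in all 4 fits, Eci1 and Slc25a20 in 3, Etfdh in 2 and Ech1 in 1. Without the libraries over 40% nuclear rRNA, Eci1 (adjusted p = 0.0575) and Pex11a (0.0642) were not called, and neither were Pex11a (adjusted p = 0.0523) and Eci1 (0.0577) with RLE scaling or Eci1 (adjusted p = 0.0503) and Pex11a (0.0625) without the filter on low counts.

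Other genes of the same routes were called in both directions in liver after stroke, where 14.4% of all genes were called, 8.55% higher and 5.84% lower. Counts near those shares are no result about a list. Of ketone body genes outside the set, the monocarboxylate carrier gene Slc16a6 (1.24 ± 0.21 SE, adjusted p = 0.000128) and Aacs, which activates acetoacetate for lipid synthesis, rose (1.15 ± 0.31 SE, adjusted p = 0.0121). Of peroxisomal oxidation genes, 2 of 23 tested rose and 5 fell. Hacl1 (-0.92 ± 0.21 SE, adjusted p = 0.00314) and Crot (-0.85 ± 0.14 SE, adjusted p = 8.23e-05) fell and Acox2, an oxidase of branched chains and bile acid precursors, rose (0.71 ± 0.10 SE, adjusted p = 7.26e-06).

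Of the other mitochondrial oxidation genes, 8 of 25 tested rose and 3 fell. Acacb, which forms the malonyl-CoA that restrains the carnitine shuttle, had 38.6, 411 and 698 CPM after stroke and 58.8, 135 and 203 CPM in naive livers (1.31 ± 0.29 SE, adjusted p = 0.00346). Acsm5 fell (-0.95 ± 0.22 SE, adjusted p = 0.00364) but was not called with sexes pooled (adjusted p = 0.0503). The acyl-CoA synthetase gene Acsl5 rose (0.78 ± 0.13 SE, adjusted p = 8.47e-05). Of other ω-oxidation genes, 1 of 10 tested rose and 1 fell, namely Cyp4a8 (1.44 ± 0.47 SE, adjusted p = 0.0431) and Adh4 (-0.75 ± 0.17 SE, adjusted p = 0.004). The call of Cyp4a8 was lost without the filter on low counts (adjusted p = 0.074), without the libraries over 40% nuclear rRNA (0.0854), with the replicate block (0.0975) and with sexes pooled (0.263). Of other known targets and partners of PPARα, 3 of 23 tested rose and 7 fell. The coactivator gene Ppargc1a had 6.02, 15.8 and 76.7 CPM after stroke and 1.84, 4 and 8.98 CPM in naive livers (2.33 ± 0.35 SE, adjusted p = 7.67e-05), and Vnn1 (-0.99 ± 0.21 SE, adjusted p = 0.00206) and Angptl4 (-0.80 ± 0.22 SE, adjusted p = 0.0163) fell. Pdk4, which holds back glucose oxidation, was not called (-0.30 ± 0.30 SE, adjusted p = 0.568).

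In adipose tissue the called gene of largest change among these lists was Cpt1b, the muscle and fat form of the transferase encoded by Cpt1a in liver. It rose, with 15.3, 32.4 and 58.6 CPM after stroke, against 8.01, 10.3 and 16.9 CPM in naive tissue (1.73 ± 0.11 SE, adjusted p = 1.05e-10), and was above the naive mean of its sex in 15 of 15 stroke libraries. In control animals the 7 stroke libraries (29.4 to 50.6 CPM) lay above all 7 naive ones (8.01 to 10.9 CPM). The groups were apart for 1.35% of all genes in that comparison. The change of Cpt1b was 1.97 ± 0.16 (SE, adjusted p = 3.72e-08). The change in PAE animals was 1.49 ± 0.14 (SE, adjusted p = 2.16e-06). Angptl4, an inhibitor of lipoprotein lipase, fell (-0.49 ± 0.15 SE, adjusted p = 0.0233), and Pdk4 (-0.22 ± 0.14 SE, adjusted p = 0.267) was not called. Over all adipose genes 18.4% were called, 10.7% higher and 7.74% lower. By list, 1 of 8 tested rose and 0 fell among ketone body genes, 4 of 22 tested rose and 3 fell among peroxisomal genes, 6 of 24 tested rose and 3 fell among mitochondrial genes, 2 of 7 tested rose and 1 fell among ω-oxidation genes, and 1 of 23 tested rose and 2 fell among PPARα targets and partners. The ketone body gene was Aacs (0.94 ± 0.32 SE, adjusted p = 0.0434). Its call was lost without the filter on low counts (adjusted p = 0.0769), without the libraries over 40% nuclear rRNA (0.065), with the replicate block (0.0935) and with sexes pooled (0.0831).

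Markers of cell types were read beside the liver result. Of 12 hepatocyte markers 4 were higher and 1 lower after stroke, with a sum of 106100 to 166800 CPM in stroke livers and 100200 to 145800 CPM in naive livers and none at 0. Of 5 neutrophil markers tested 4 were higher, with a sum of 2.69 to 11.4 CPM after stroke and 1.09 to 6.35 CPM in naive livers, and of 10 macrophage markers 0 were called (332 to 836 and 188 to 786 CPM in stroke and naive livers). The part of these markers in the fall of the members was not tested.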

How the data were processed

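RNA of 60 libraries (liver and mesenteric adipose tissue of 30 animals per tissue) was sequenced after ribosomal depletion with a stranded total RNA kit, per the labels' protocols. The tools named in the submitters' processing notes are Trimmomatic, HISAT2, HTSeq and DESeq2, and the build is rn7. Versions and settings are not given in the sources used here. The deposited counts are raw reads per gene, 1 file per library, and they are the values tested. The authors' deposited tables of log2 fold changes and adjusted p-values, made with DESeq2, were used only for the comparison in the closing section, and 90 columns of normalised values were not used.

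Members were matched by symbol. Members and gene lists were chosen with earlier results of these data known. Genes were filtered with filterByExpr (minimum count 10), which left 15889 genes in liver, 18546 in adipose tissue and 19686 in both. Counts were TMM-scaled and tested with edgeR 4.0.16 (R 4.3.3, robust quasi-likelihood), 1 fit of 8 groups per tissue (exposure, stroke and sex) and 1 joint fit of 16 groups, with sexes weighted equally and Benjamini-Hochberg adjustment over all genes. Stroke contrasts were taken per exposure and averaged over exposures. DESeq2 1.42.0 was an alternative. CPM values are TMM-scaled, log2 CPM has a prior count of 2, and levels of different genes are not compared because no transcript lengths were used. Class levels are means of log2 CPM over the tested members and carry no test. The scripts were tested on simulated counts. Liver and adipose titles carry the same animal codes, which the labels do not define. Deviations of the 30 pairs correlated at r from 0.00537 to 0.143, and 25 of 30 livers correlated best with their own code, so the code was a block in an alternative fit.

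Genes named with values are the called members of each comparison (at most 8, by size of change), always Cpt1a, Acadm, Hadha, Ehhadh, Cyp4a1, Bdh1 and Ppara, at most 3 called genes per further list, and always Pdk4 and Angptl4. Some genes of the further lists are not reported here. Other members named were picked after their values were seen. Alternatives were DESeq2, RLE scaling, no filter on low counts, rRNA genes removed, libraries over 40% nuclear rRNA left out, sexes pooled, the replicate number as a block, single libraries left out and, for class levels, a prior count of 0.5 and the median over members.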

Additional observations from a re-analysis of the deposited data

Results flagged for a closer look

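Single libraries lay far from the others of their group in 7 of 204 groups tested. Chance gives about 1 in 20 groups, which is a larger share. Ehhadh stood at 7.132 log2 CPM in the liver of PAE stroke female 4, where the remaining PAE stroke livers ranged from 8.95 to 9.34. Ppara stood at 7.122 log2 CPM in the liver of PAE stroke female 4, where the remaining PAE stroke livers ranged from 7.95 to 8.24. Etfb stood at 6.82 log2 CPM in the liver of PAE stroke female 4, where the remaining PAE stroke livers ranged from 5.63 to 6.03. These 3 values come from the same library. Etfdh stood at 7.01 log2 CPM in the liver of PAE stroke male 3, where the remaining PAE stroke livers ranged from 7.32 to 7.59. Acaa2 stood at 9.331 log2 CPM in the liver of PAE naive male 4, where the remaining PAE naive livers ranged from 8.78 to 9.02. Pex11a stood at 3.65 log2 CPM in the liver of PAE naive male 1, where the remaining PAE naive livers ranged from 4.97 to 5.30. Hadha stood at 7.415 log2 CPM in the liver of control naive female 2, where the remaining control naive livers ranged from 7.93 to 8.11. 

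The change after stroke differed between liver and adipose tissue for 13 members by the interaction test of edgeR. The liver change minus the adipose change was -2.427 for Acot4, -1.364 for Acot2, -1.175 for Cyp4a1, -0.8339 for Cpt2, -0.7624 for Pex11a, -0.7128 for Acaa2. It was -0.7071 for Ech1, -0.6941 for Eci1, -0.6917 for Decr2, -0.66 for Hadhb, -0.4188 for Etfdh and -0.3851 for Slc25a20 on the same log2 scale. For Etfb the difference was 0.6455.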

How the results depend on the processing

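Counts of called members moved by over 1.5 times under several settings. With sexes pooled, the members called after stroke numbered 7 in PAE livers, 1 in PAE and 0 in control adipose tissue, and 4 in adipose tissue with exposures averaged. The same fits called 579, 978, 431 and 2997 of all genes, against 1112, 1165, 783 and 3417 in the main fits. DESeq2 called 5 in PAE and 6 in control adipose tissue after stroke, 2 between PAE and control in naive adipose tissue, and 1 for the sex by stroke difference in liver. Of all genes DESeq2 called 1738, 1332, 23 and 88 in these comparisons, against 1165, 783, 0 and 20 in the main fits. Without the libraries over 40% nuclear rRNA, 5 members were called after stroke in control livers, with 312 of all genes called against 468 in the main fit. The cause was not tested. Leaving out 1 library at a time gave 8 to 12 members in PAE livers, 6 to 11 in control livers, 17 to 21 in liver with exposures averaged and 8 to 11 for sex in liver. In adipose tissue it gave 1 to 3 in PAE animals, 0 to 6 in control animals, 6 to 10 averaged and 6 to 16 for sex. Leaving out 1 replicate number at a time gave 8 to 10 members for the tissue by stroke difference. The counts of all genes called with libraries left out are not reported here. For class levels, the median over members in place of the mean gave 0.13 for male minus female and 0.17 for the sex by stroke difference of the ω class in liver. In adipose tissue it gave -0.0134 (control) and -0.0702 (averaged) for stroke over all members, and -0.41 for the mitochondrial exposure by stroke difference. For liver minus adipose it gave 2.80, 2.08, 3.06 and 10.9 for all, mitochondrial, peroxisomal and ω members, and a prior count of 0.5 gave 10.1 for the ω class. No called value of a named gene changed sign in 6816 fits, and 6151 of them kept the call.

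Replicate numbers were shared by groups. With a replicate block, stroke called 11 members in PAE, 10 in control and 20 in averaged livers, 2, 3 and 9 in the same adipose comparisons, and 16 for the tissue by stroke difference. Of all genes the block fits called 1071, 496 and 2404 in liver, 883, 666 and 2951 in adipose tissue, and 1417 for the tissue by stroke difference. Deviations of same-numbered stroke and naive libraries correlated at r from -0.166 to 0.304 in liver (9 of 15 over 0.1) and from -0.286 to 0.279 in adipose tissue (10 of 15). The main fits did not treat same-numbered animals as pairs, and these correlations do not decide whether they are. The labels do not say whether they share a litter or a batch, and this was not tested. In liver 10 of 15 and in adipose tissue 6 of 15 correlated best with their own number, among the 3 or 4 naive libraries of the same exposure and sex. Depth limits the low members most: Acot1 in liver, and Acot12, Cyp4a2 and Cyp4a3 in adipose tissue, did not pass the filter on low counts in the main fit of that tissue. They were fitted there without the filter and with DESeq2. In the joint fit of both tissues all 33 members passed the filter.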

Other observations

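In the authors' deposited table of stroke against naive, 0 members were called higher and 12 lower in PAE livers, and 0 higher and 10 lower in control livers, where that table called 8.65% of all its genes in PAE livers and 4.6% in control livers. In adipose tissue the authors' deposited table called 0 higher and 1 lower in PAE animals, and 4 higher and 1 lower in control animals, where it called 8.54% of all its genes in PAE animals and 8.13% in control animals. Between PAE and control naive animals, the authors' deposited table called 0 members in either tissue. For that comparison it called 0.127% of all its genes in adipose tissue and 0.0682% in liver.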
